A study of Arabidopsis thaliana with 103 samples.

Results

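AIPP3-FLAG peaks that were also bound by PIAL2-Myc are described here as a set of 960 genomic intervals. They were taken from the 4888 distinct nuclear intervals of the first of 2 AIPP3-FLAG ChIP-seq peak lists. Of these, 2234 overlapped an interval of the second AIPP3-FLAG list by at least 1 bp, and 960 of those 2234 also overlapped an interval of at least 1 of 2 PIAL2-Myc lists. The other 1274 reproducible AIPP3 peaks, which no PIAL2-Myc interval touched, served as the set for comparison. The PIAL2-Myc evidence was uneven. It came from both lists at 334 members, from the replicate 1 list alone at 606 and from the replicate 2 list alone at 20. The members covered 1086024 bp, which is 0.912% of the nuclear genome.

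The study addressed how a group of interacting silencing factors is placed on chromatin in *Arabidopsis thaliana*. ChIP-seq came from unopened flower buds of lines that carried a tagged protein under its own promoter in the mutant of that gene. AIPP3-FLAG and PHD1-FLAG had 2 replicates each, PIAL2-Myc had 2, PHD3 had 1 FLAG and 1 Myc library, and MORC6-Myc had 2 replicates in *morc6-3*. PIAL2-Myc chromatin was fixed with both EGS and formaldehyde and the other chromatin with formaldehyde alone. In a separate MORC6-Myc experiment, T2 plants of independent transgenic lines were used, with 3 lines in *morc6-3*, 2 in Col-0 and 3 in the *pial1 pial2* double mutant, called *pial1/2*. RNA-seq came from 12-day-old seedlings, a different tissue, with 3 libraries for each genotype. The mutants were *pial1-2*, *pial2-1*, *pial1/2*, *aipp3-1*, *aipp3-2*, *mom2-1*, *mom2-2*, *morc6-3*, *nrpe1-11*, the CRISPR alleles *phd1-2* and *phd1-4*, and *morchex*, which combines *morc1-2*, *morc2-1*, *morc4-1*, *morc5-1*, *morc6-3* and *morc7-1*. The *nrpe1-11* libraries had their own 3 Col-0 libraries, and the 11 other mutants shared 1 set of 3 Col-0 libraries. The labels do not say whether replicates came from separately grown plants, so p-values measure the spread between these libraries, which may be technical.

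AIPP3 is a protein with a bromo-adjacent homology domain, a fold that binds histone tails. It works with several plant homeodomain (PHD) finger proteins and with CPL2, a phosphatase of the RNA polymerase II tail. PIAL1 and PIAL2 are related to SUMO ligases and are known for the silencing of transposons. MORC proteins are ATPases that act in gene silencing, and the alleles of *MORC6* and of *NRPE1*, the largest subunit of RNA polymerase V, affect RNA-directed DNA methylation. MOM2 is a relative of the silencing factor MOM1. A protein peak over a gene does not say whether the gene is silent, and many members lay over strongly expressed genes, as given below.

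Members over genes for spliceosomal small nuclear RNAs (snRNAs) shared a promoter element, so these promoters are shown first. Nuclear coordinates of the deposited lists (TAIR10) and of the RefSeq annotation (TAIR10.1) refer to the same chromosome sequences. Each line gives 100 bases before and 20 from the start of a RefSeq snRNA gene on the strand of that gene. Capitals mark CCCACATCG, the core of the upstream sequence element known from plant snRNA promoters, and TATAAA, with the reverse complement of each. The first 5 genes lay on members: U1.6 at chr3:1681716-1681835 (plus strand), U2.1 at chr1:5758282-5758401 (plus strand), U4.2 at chr3:2178324-2178443 (minus strand), U5.10 at chr5:4690393-4690512 (minus strand) and U12 at chr1:22603021-22603140 (plus strand). The last 2, U6-26 at chr3:4561012-4561131 (plus strand) and U6.6 at chr4:16754737-16754856 (plus strand), are genes of the U6 family, which RNA polymerase III transcribes, and lay on no reproducible AIPP3 peak.
U1.6: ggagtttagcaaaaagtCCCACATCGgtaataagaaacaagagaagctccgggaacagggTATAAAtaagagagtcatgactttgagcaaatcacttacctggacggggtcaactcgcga
U2.1: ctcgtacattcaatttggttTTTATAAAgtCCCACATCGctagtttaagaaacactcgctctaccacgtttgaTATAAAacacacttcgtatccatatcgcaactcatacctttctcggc
U4.2: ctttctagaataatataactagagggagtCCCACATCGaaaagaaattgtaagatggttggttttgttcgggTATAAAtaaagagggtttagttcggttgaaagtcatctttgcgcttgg
U5.10: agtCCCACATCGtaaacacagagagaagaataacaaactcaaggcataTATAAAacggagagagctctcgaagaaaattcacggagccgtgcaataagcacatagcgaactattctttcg
U12: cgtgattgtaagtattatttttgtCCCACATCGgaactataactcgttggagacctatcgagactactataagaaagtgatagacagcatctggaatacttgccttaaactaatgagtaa
U6-26: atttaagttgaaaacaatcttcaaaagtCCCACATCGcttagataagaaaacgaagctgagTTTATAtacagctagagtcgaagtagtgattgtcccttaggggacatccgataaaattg
U6.6: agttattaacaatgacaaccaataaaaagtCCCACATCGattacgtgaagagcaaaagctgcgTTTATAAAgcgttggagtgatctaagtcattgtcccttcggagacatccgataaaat

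The element was searched after the snRNA genes had been seen among the members, on the gene strand within 100 bases before the start. Of the 65 snRNA loci of families other than U6 and U6atac, 25 had CCCACATCG there. Of these 25, 17 lay on members and the other 8 on AIPP3 peaks without PIAL2, so that each of the 25 lay on a reproducible AIPP3 peak. Of the 40 loci without it, 4 lay on members and 3 on the other AIPP3 peaks. The U2 loci with the element had atacctttctcggc about the annotated start, as did U2.9 without it. At other loci without the element, among them U2.6, U2.4, U2.3 and U2.7 on members, the sequence there was unlike this. For such loci the 100 bases may not be the promoter of a snRNA, so absence of the element from their promoters is not shown. Among the 17 U6 and U6atac loci, 4 had the element and none lay on a reproducible AIPP3 peak. In the 14 member promoters that held both elements in this order, 33 to 36 bases separated CCCACATCG from TATAAA (median 34). In 5 promoters off members, of families other than U6 and U6atac, the distance was 33 to 39 bases (median 34). In U6.6 it was 26 bases. Each of the 19 members over a snRNA gene held CCCACATCG somewhere in its interval on either strand. In windows from 250 bases before to 50 bases after the start, 0.282% of the promoters of all 37897 genes and 36.6% of those of all 82 snRNA loci held it. Some snRNA entries are annotated as pseudogene copies, and 4 U2 names are given to a pair of loci each, of which 1 lay on a member. Those 4 member loci are the ones without the element in the 100 bases.

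Intervals of other kinds are shown for sequence context. The first is the 300 bases before the start of AT5G52070, at chr5:21160832-21161131 (plus strand), inside the member with the highest enrichment in PIAL2-Myc replicate 2. The other is a stretch about the summit of a member with no annotated gene, at chr3:1963609-1963908 (plus strand), where PHD1-FLAG was found in both of its lists. Capitals mark TATAAA and its reverse complement.
AT5G52070 upstream: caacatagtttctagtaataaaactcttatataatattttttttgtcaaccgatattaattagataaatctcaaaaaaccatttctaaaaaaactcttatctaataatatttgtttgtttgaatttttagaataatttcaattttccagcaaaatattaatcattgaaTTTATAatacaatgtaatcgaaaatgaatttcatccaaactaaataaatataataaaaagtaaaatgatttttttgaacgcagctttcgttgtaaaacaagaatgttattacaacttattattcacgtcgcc
chromosome 3 member: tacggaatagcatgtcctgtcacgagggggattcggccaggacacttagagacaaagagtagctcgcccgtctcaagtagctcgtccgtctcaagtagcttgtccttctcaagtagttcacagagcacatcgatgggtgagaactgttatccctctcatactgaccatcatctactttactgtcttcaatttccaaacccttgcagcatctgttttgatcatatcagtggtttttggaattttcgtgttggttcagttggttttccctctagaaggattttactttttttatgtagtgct

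The members were chosen by the presence of AIPP3-FLAG and PIAL2-Myc peaks, so the enrichments of these proteins are given as a description. MACS2 fold enrichment over the control in AIPP3-FLAG replicate 1 had a median of 3.16 in the members (1.32 to 8.71), against 2.78 in the AIPP3 peaks without PIAL2. In AIPP3-FLAG replicate 2 the medians were 2.73 and 2.44. PIAL2-Myc enrichment was lower, with a median of 1.94 over the 940 members in the replicate 1 list and 2.72 over the 354 in the replicate 2 list, where it reached 13.6. Members were wide, with a median of 989.5 bp (210 to 7327 bp) against 544 bp, and wide intervals have more room for an overlap. The overlap with PIAL2-Myc had a median of 367 bp. At the edge of the rule, the members with the smallest overlaps were touched over 7, 10 and 11 bp, and the nearest AIPP3 peaks outside it lay 1, 3 and 9 bp from a PIAL2-Myc interval. Overlaps of at most 50 bp accounted for 14 members, and 66 of the other AIPP3 peaks had a PIAL2-Myc interval within 200 bp.

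The other lists were not used to choose the members. PHD1-FLAG and MORC6-Myc were more frequent on members than on the AIPP3 peaks without PIAL2, whereas PHD3-FLAG was frequent on both. PHD1-FLAG replicate 1 overlapped 447 of the 960 members, 46.6% (95% Clopper-Pearson interval 43.4 to 49.8%), and 11.9% (10.2 to 13.8%) of the 1274 other peaks. PHD3-FLAG overlapped 81.8% (79.2 to 84.2%) of members and 85.3% (83.3 to 87.2%) of the others. PHD3-Myc, a shorter list of 853 intervals, overlapped 42.2% (39.0 to 45.4%) and 21.0% (18.8 to 23.4%). MORC6-Myc replicate 1 overlapped 55.8% and 9.11%, and replicate 2 overlapped 33.4% and 1.33%. MORC6 peaks present in both of these lists, 4200 in all and called reference MORC6 peaks below, overlapped 36.3% (33.2 to 39.4%) of members and 1.88% (1.21 to 2.79%) of the others. Intervals cover counting over peaks only, and peaks of 1 library are not replicates, so no test was made of these differences.

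The second PHD1-FLAG list held 27 nuclear intervals against 2944 in the first, and stood apart in this. It nevertheless met 11 members and 0 of the 1274 other peaks, which allows a share of up to 0.289% (Clopper-Pearson) among the latter. The 11 members were in both PIAL2-Myc lists. They included *ACT2*, an actin gene, AT5G52070, the retroelement-like *SADHU1-3* pseudogene and 3 neighbouring intervals at chr3:1963344-1971151.

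Combinations of these proteins were as uneven as the single lists. PHD1-FLAG replicate 1, PHD3-FLAG and a reference MORC6 peak were all present at 148 members and at 2 of the other AIPP3 peaks. PHD3-FLAG alone was present at 354 members (36.9%) and at 948 others (74.4%), and none of these at 42 members and 154 others. PHD1-FLAG together with reference MORC6 but without PHD3-FLAG was found at 83 members and 2 others. The higher shares of PHD1 and MORC6 on members were found in each of 4 ranges of AIPP3 enrichment, cut at the quartiles of all reproducible peaks. In the range with the lowest enrichment, PHD1-FLAG overlapped 47.8% of members and 8.08% of others, and reference MORC6 44.7% and 1.52%. In the range with the highest, the shares were 52.0% and 23.4% for PHD1-FLAG and 31.8% and 3.48% for reference MORC6. PHD3-Myc behaved differently, with 11.8% and 5.56% in the lowest range and 75.1% and 62.2% in the highest, so that it tracked AIPP3 enrichment in both sets.

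The 960 members were not uniform, and the evidence for PIAL2 divided them. Where PIAL2-Myc was in both lists, PHD1-FLAG was present at 77.8% (73.0 to 82.2%) of members and reference MORC6 at 70.1% (64.8 to 74.9%). Where PIAL2-Myc was in the replicate 1 list alone, these were 29.0% (25.5 to 32.8%) and 18.0% (15.0 to 21.3%). PHD3-FLAG went the other way, with 67.7% (62.4 to 72.7%) and 89.6% (86.9 to 91.9%), as did PHD3-Myc with 35.3% and 46.0%. AIPP3 enrichment did not separate these groups, with medians of 3.18 and 3.16. The PIAL2-Myc lists differ in length, with 7881 intervals in replicate 1 and 1969 in replicate 2. The part of this difference in the split was not tested.

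**Figure D1:**
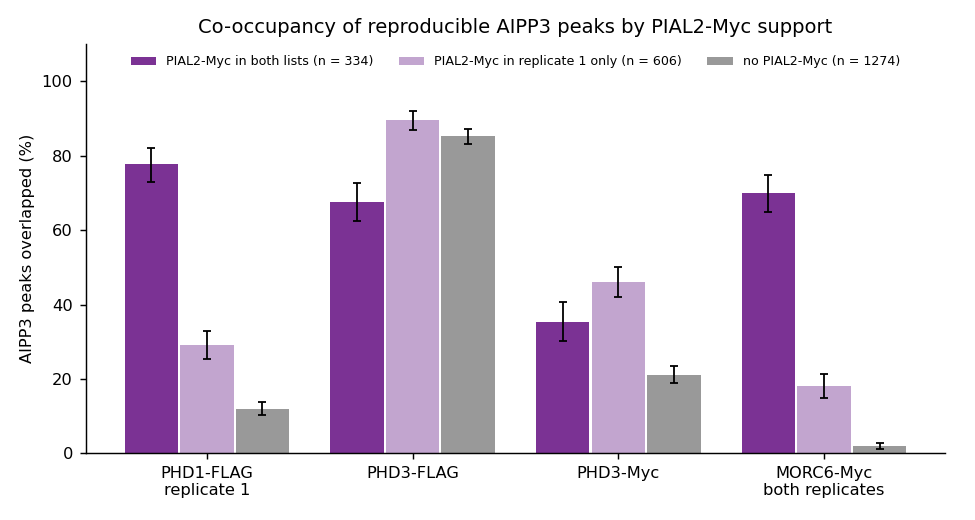
Share of reproducible AIPP3 peaks overlapped by each list (y axis, percent), for peaks with PIAL2-Myc in both lists, in replicate 1 only or in neither, with bars for 95% Clopper-Pearson intervals. PHD1-FLAG and MORC6-Myc step down from the first group (77.8% and 70.1%) to the last (11.9% and 1.88%), whereas PHD3-FLAG is lowest in the first (67.7%).

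Fold enrichments of the lists across members fell into the same groups. Spearman's rho is given over the members with a peak in both lists, as a description, since values of a member share its width, base composition and accessibility. AIPP3-FLAG replicate 1 went with replicate 2 (rho of 0.86, 960 members), with PHD3-FLAG (0.54, 785 members) and with PHD3-Myc (0.50, 405 members). It did not go with PIAL2-Myc replicate 1 (0.03, 940 members), PHD1-FLAG replicate 1 (-0.14, 447 members) or MORC6-Myc replicate 1 (-0.16, 536 members). PIAL2-Myc replicate 1 went with its own replicate 2 (0.76, 334 members), with PHD1-FLAG replicate 1 (0.54, 436 members) and with MORC6-Myc replicate 2 (0.68, 317 members). AIPP3-FLAG and PIAL2-Myc peaks defined the members, and each rho left out members without a peak in both lists. Values too weak for a peak are therefore missing, and the part of this choice in the rho values was not tested. Among the values left, enrichments of AIPP3 and PHD3 varied together, as did those of PIAL2, PHD1 and MORC6.

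**Figure D2:**
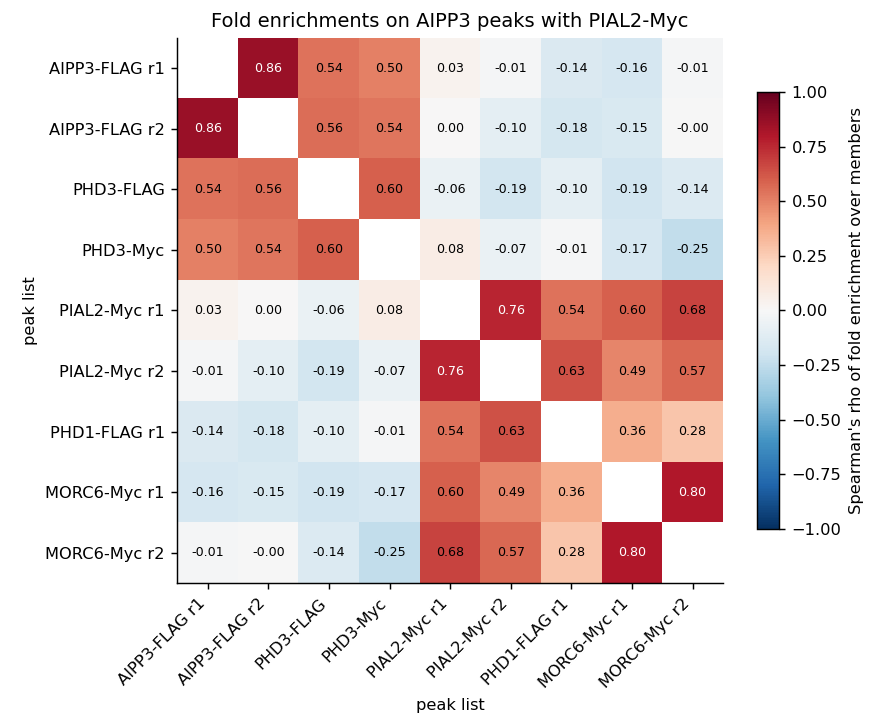
Spearman's rho between MACS2 fold enrichments of each pair of lists over the members with a peak in both (r1 and r2 are replicates, colour scale from -1 to 1). AIPP3 and PHD3 lists have rho of 0.50 to 0.86 with each other, PIAL2, PHD1 and MORC6 lists have rho of 0.28 to 0.80 with each other, and values between these blocks stay from -0.25 to 0.08.

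Members lay mainly just inside the start of genes. The summit was within 500 bp of an annotated start at 685 members (71.4%, 68.4 to 74.2%), against 58.7% (56.0 to 61.4%) of the AIPP3 peaks without PIAL2. Deeper in a gene lay 23.1% and 31.1%, within 1000 bp after a gene end 4.06% and 9.97%, and between genes 1.46% and 0.235%. The median summit was 272 bp after the nearest start, and 12.2% of member summits lay before that start. The start-proximal share was 56.6% (51.1 to 62.0%) where PIAL2-Myc was in both lists and 80.4% (77.0 to 83.5%) where it was in replicate 1 alone. Conversely, members over a pseudogene only or over no gene made up 12.3% of the former and 1.16% of the latter.

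In all, members overlapped 1319 of 37899 RefSeq genes, and 25 members overlapped none. The share of a gene class on members was highest for the snoRNAs, which guide chemical modification of other RNAs, with 132 of 287 (46.0%, over 57 members because many are clustered). Of these genes, 23.3% lay on AIPP3 peaks without PIAL2. The snRNAs followed with 21 of 82 (25.6%), against 13.4% on the other peaks. By family, 10 of 23 U2, 5 of 14 U1, 3 of 14 U5, 2 of 11 U4 and 1 of 2 U12 loci lay on members, and 0 of 14 U6 and 0 of 3 U6atac loci. Protein-coding genes on members numbered 985 of 27444 (3.59%), with 5.19% on the other peaks, and miRNA genes 28 of 326 (8.59%). Among protein-coding genes, those with photosystem, chlorophyll or ribulose bisphosphate carboxylase in their product name had 25 of 84 on members (29.8%), histones 18 of 110 (16.4%), ribosomal proteins 47 of 369 (12.7%) and actins or tubulins 12 of 105 (11.4%). For the ribosomal proteins the share on AIPP3 peaks without PIAL2 was 32.2%, for the photosynthetic genes 36.9% and for the histones 18.2%. Transcription factor families had 4.71% on members, near the share of all protein-coding genes.

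Co-occupancy followed the class of gene. At the 75 members over a snRNA or snoRNA gene, PHD3-FLAG was present at 100% and PHD3-Myc at 97.3%, with a median AIPP3 enrichment of 4.46, while PHD1-FLAG was present at 54.7% and reference MORC6 at 10.7%. At the 48 members over a pseudogene only or no gene, PHD1-FLAG was present at 89.6%, reference MORC6 at 87.5% and PIAL2-Myc replicate 2 at 85.4%, with PHD3-FLAG at 52.1% and a median AIPP3 enrichment of 2.67. The 800 members over protein-coding genes lay between these classes for PHD3-FLAG (81.8%) and reference MORC6 (35.1%) and below both for PHD1-FLAG (42.8%).

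Members were spread along the chromosome arms. Chromosomes 1 to 5 held 250, 156, 204, 150 and 200 members, or 7.41 to 8.70 per Mb. Windows of 500 kb with at least as many annotated pseudogene loci as protein-coding genes stand in for transposon-rich DNA. These 33 of 240 windows lie about the centromeres and make up 13.8% of the nuclear genome. In them there were 38 members (3.96%, 2.82 to 5.39%). Of the AIPP3 peaks without PIAL2, 1.26% (0.720 to 2.03%) lay there, and of all reference MORC6 peaks 22.4% (21.2 to 23.7%). The share was 6.29% where PIAL2-Myc was in both lists and 2.81% where it was in replicate 1 alone. Of 955 pairs of neighbouring members, 137 were at most 10 kb apart, and the median gap was 70655 bp.

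The 300 bases about the member summits were counted for short motifs on both strands. Promoter windows ran from 250 bases before to 50 bases after the start, whereas the median member summit lay 272 bp after it. Members and promoters were thus read at different parts of genes, and the part of position in their differences was not tested. The telobox-like AAACCCTA, found in promoters of ribosomal and other growth genes, was present in 10.0% of members, in 7.06% of the other AIPP3 peaks and in 6.17% of all promoters. The repeat GAGAGAGA was present in 19.0%, 14.1% and 7.56%, and among members in 23.1% of those with PIAL2-Myc in replicate 1 alone and 12.3% of those in both lists. TATAAA was in 24.9% of members, 29.5% of the other AIPP3 peaks and 48.8% of promoters. TGGGCC, the site of TCP factors, was in 3.75%, 3.92% and 13.0%. Over whole member intervals, which are wider, TGGGCC was in 7.69 to 57.3% by gene class, with 13.4% over protein-coding genes. The G-box CACGTG was in 4.69% of members, 3.38% of the other AIPP3 peaks and 6.46% of promoters. For the evening element AAAATATCT these shares were 1.04%, 1.02% and 2.49%. The median GC content was 41.7% in members, 38.0% in the other AIPP3 peaks and 32.7% in promoters.

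Loss of PIAL1 and PIAL2 went with far fewer MORC6-Myc peaks on the members. In the 3 *morc6-3* lines MORC6-Myc overlapped 49.3%, 73.4% and 53.3% of the 960 members, and in the 2 Col-0 lines 44.3% and 74.6%. In the 3 *pial1/2* lines it overlapped 9.58%, 13.3% and 14.4%. The lines of the *pial1/2* background did not overlap with the others. The mean was 12.4% ± 2.52 (SD, n = 3) in *pial1/2* and 59.0% ± 14.1 (SD, n = 5) in the other lines, a difference of -46.5 percentage points with an exact permutation p of 0.0357 (two-sided, 56 splits, adjusted 0.0357 over 3 tests, the smallest these numbers allow). The whole lists were also shorter in *pial1/2*, with 1151 to 1348 intervals against 8006 to 13430. With any line left out, or against the Col-0 lines alone, the design cannot reach 0.05, and the difference then lay between -50.2 and -42.6 points. With at least 50% of the interval overlapped it was -23.2 points (exact permutation p of 0.0357).

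On the AIPP3 peaks without PIAL2, MORC6-Myc was rare in every line, with 5.10 to 15.1% in the lines with PIAL1 and PIAL2 and 0.235 to 0.628% in *pial1/2*. The share on members minus the share on these peaks was 50.0 ± 9.20 points (SD, n = 5) in the former and 12.0 ± 2.36 points (SD, n = 3) in the latter. These peaks had little MORC6-Myc to lose, so this difference in points follows largely from that on members and is not separate evidence, and it fell to -20.6 from -38.0 points with at least 50% overlap. Among reference MORC6 peaks, those on members were in the *pial1/2* lists more often when any overlap counted. The *pial1/2* lines held 26.6%, 32.3% and 28.0% of the 350 reference peaks on members and 16.6%, 21.8% and 16.3% of the 3850 elsewhere, whereas the other lines held 94.0 to 100% and 95.7 to 99.8%. On members minus elsewhere this gave 10.7 ± 0.873 points (SD, n = 3) in *pial1/2* and -0.587 ± 0.766 points (SD, n = 5) in the others. The difference between these means, 11.3 points, fell to 1.60 points with at least 50% of the interval overlapped. The reference peaks come from MORC6-Myc lists of plants with PIAL1 and PIAL2, so that shares in the others were near their upper limit on and off members, and no test of this difference is given. Reference peaks on members were a little stronger (median fold enrichment of 6.12 against 5.85) and wider (869.5 against 649.5 bp) than those elsewhere. The part of this in their retention was not tested.

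**Figure D3:**
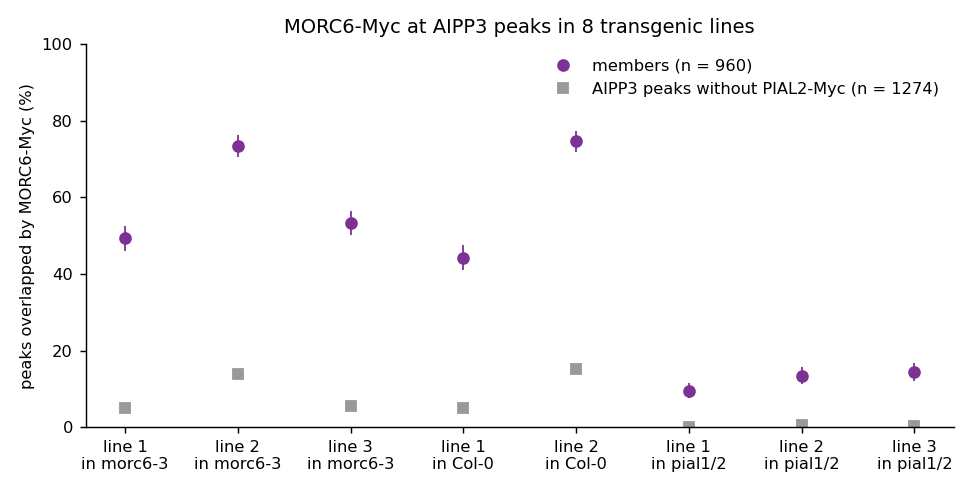
Share of members (circles, with 95% Clopper-Pearson intervals) and of AIPP3 peaks without PIAL2 (squares) overlapped by MORC6-Myc (y axis, percent) in each of 8 transgenic lines. Members lie at 44.3 to 74.6% in the 5 lines with PIAL1 and PIAL2 and at 9.58 to 14.4% in the 3 *pial1/2* lines.

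Members differed in what was left. A MORC6-Myc peak was present in all 3 *pial1/2* lines at 70 members, 69 of which had one in all 8 lines. At 239 members MORC6-Myc was present in all 5 other lines and in no *pial1/2* line, and at 185 in none of the 8. The 70 retained members had PIAL2-Myc replicate 2 at 92.9% and PHD1-FLAG at 82.9%, and the 239 at 62.8% and 64.9%. The 185 had 5.95% and 29.7%. The highest enrichment left in *pial1/2* was at AT1G56090, a gene start at chr1:20979008-20979626, where MORC6-Myc was at 11.4, 12.7 and 14.4 in the *pial1/2* lines and at 16.6 to 18.0 in the others. At AT3G31005, a transcribed pseudogene at chr3:12669906-12671150, the values were 6.65, 7.89 and 7.02 against 15.8 to 17.5. At *ATAF2*, which encodes a NAC transcription factor, they were 5.15, 5.19 and 5.18 against 11.3 to 14.7. AT5G52070 was the opposite case, with 15.7 to 16.7 in the 5 lines with PIAL1 and PIAL2 and no peak in any *pial1/2* line.

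The member with the highest enrichment in AIPP3-FLAG replicate 1 was *ACT2* at chr3:6474082-6475683, with fold enrichments of 8.71 and 3.67 in the AIPP3-FLAG replicates, 3.44 and 10.9 in PIAL2-Myc, 4.21 in PHD1-FLAG replicate 1 and 6.56 in PHD3-FLAG. In AIPP3-FLAG replicate 2 members reached 7.02, so *ACT2* did not lead there. AT1G11362 and AT1G11370 shared the widest member, at chr1:3823916-3831242, with 7.75 in AIPP3-FLAG replicate 1, 11.1 in PIAL2-Myc replicate 2 and 5.50 in PHD1-FLAG replicate 1. An interval without a gene at chr4:11357784-11362093 reached 7.67 and had no PHD3 peak. AT4G35940 had 7.48 and *LOS1*, which encodes a translation elongation factor, 7.11. In all of the PIAL2-Myc, PHD3, MORC6-Myc and first PHD1-FLAG lists were 44 members, led by *LAF3* (6.77 in AIPP3-FLAG replicate 1) and U2.6 (6.59). U2.6, at chr3:21004177-21005171, had 8.81 in PHD3-FLAG and 5.30 in PHD3-Myc beside 1.82 and 2.26 in PIAL2-Myc, and unlike most members over snRNA or snoRNA genes it was in both MORC6-Myc lists (2.11 and 1.71). No member lay over *FWA* or over the genes for AIPP3, PIAL2, PHD1, PHD3 or MORC6. *CPL2*, which encodes the partner phosphatase, lay on a member at chr5:111823-112430, with 5.27 in AIPP3-FLAG replicate 1.

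Genes on members were strongly expressed in Col-0 seedlings. On the TPM scale, which adjusts for transcript length, the 968 overlapped protein-coding genes with a value had a median of 36.0 (mean of the 3 shared Col-0 libraries), against 42.2 for the 1411 on AIPP3 peaks without PIAL2 and 6.84 for all 26712. Genes on members with PIAL2-Myc in both lists had a median of 12.9 TPM and 19.9% of them were under 1 TPM. Those with PIAL2-Myc in replicate 1 alone had a median of 49.3 TPM, with 5.19% under 1. The 132 snoRNA genes could not be compared, as 38 had a row in the RNA-seq values and 0 passed the filter on low counts.

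The RNA of overlapped genes was then compared between each mutant and its Col-0. Of the 1319 overlapped genes 917 could be tested in at least 1 mutant. Calls needed a log2 change of 1 or more in size and an adjusted p under 0.05 (edgeR quasi-likelihood test, Benjamini-Hochberg over all genes and transposons tested). In *pial1/2*, 3 of 899 overlapped genes were higher and 0 lower (0.334%), against 0.474% higher and 0.0101% lower among all 19834 features tested, together 0.484%. In *pial2-1* 1 was higher and 1 lower of 901 (0.222%), against 0.0961% and 0.0506% of all features, together 0.147%. In *pial1-2* 1 was higher and 0 lower of 899 (0.111%), against 0.0455% and 0.0607%, together 0.106%. In *mom2-1* edgeR called 0 of 902 and DESeq2 called 0, where edgeR called 0.0152% of all features higher and 0.0203% lower, together 0.0355%. An unadjusted edgeR p under 0.05 was found there for 17 of the 902 and for 536 of all 19740 features. In *nrpe1-11* 4 were higher and 4 lower of 901 (0.888%), against 0.382% and 0.0956%, together 0.478%, and 5 were called without *nrpe1-11* replicate 3. Few overlapped genes thus passed the test in these 5 mutants.

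Calls were more frequent in the 7 remaining mutants. In *aipp3-1* 18 overlapped genes were higher and 25 lower of 904 tested (4.76%), against 1.78% and 1.1% of all features, together 2.88%. In *aipp3-2* 29 were higher and 32 lower of 907 (6.73%), against 2.68% and 1.53%, together 4.2%. In *phd1-2* 14 were higher and 38 lower of 899 (5.78%), against 1.13% and 1.97%, together 3.1%. Lower calls were the larger part of the overlapped genes called in each of the 7 mutants, but for *aipp3-1* this turned with single libraries left out, as given below. In *phd1-4* 19 were higher and 46 lower of 899 (7.23%), against 1.14% and 2.57%, together 3.71%. In *mom2-2* 11 were higher and 44 lower of 899 (6.12%), against 0.901% and 2.48%, together 3.38%. In *morc6-3* 16 were higher and 41 lower of 897 (6.35%), against 1.03% and 2.33%, together 3.35%. The compound mutant *morchex* was close to these. It had 20 higher and 43 lower of 900 (7%), against 1.46% and 2.45%, together 3.91%. Genes on AIPP3 peaks without PIAL2 had 3.31 to 4.76% called in the same 7 mutants. Medians of the log2 fold change over the overlapped genes stayed between -0.02 and 0.04. The *aipp3-1* count rested on single libraries, with 4 higher and 1 lower without Col-0 replicate 2, 4 and 3 without Col-0 replicate 3, and 8 and 7 without *aipp3-1* replicate 2. Overlapped genes were more strongly expressed than most genes, as given above, and the part of expression level in these shares was not tested.

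Many of these calls were of the same genes. Of the 112 overlapped genes called in any mutant, 46 were called in 5 or more and 39 in 1 only, and none was higher in one mutant and lower in another. The same counts were not made over all features tested, so this recurrence is not shown to be particular to members. The 7 mutants share their Col-0 libraries, so agreement among them is not independent. *EXLA1*, which encodes an expansin-like cell wall protein, was at 118, 267 and 244 CPM (counts scaled to library size) in Col-0 and at 12.8, 16.3 and 25.4 CPM in *phd1-4*, a log2 fold change of -3.51 (SE 0.340, adjusted p of 7.0e-04). It was lower in the other 6 by -3.38 to -1.92, and in *pial1/2*, against the same Col-0 libraries, it was at 138, 294 and 353 CPM (0.31, not called). *EXO*, an extracellular growth protein, changed by -2.66 to -2.05 in the 7 mutants. AT2G21210, a SAUR-like auxin-responsive gene, was higher by 1.85 to 2.35 in the 7 mutants, with 70.7, 50.7 and 33.0 CPM in *morchex* against 13.5, 10.0 and 7.87 in Col-0. In *pial1/2*, *pial2-1*, *pial1-2* and *mom2-1* these 3 genes were not called, with log2 fold changes of -0.09 to 0.54. *mom2-1* and *mom2-2* are alleles of the same gene. In the separate Col-0 libraries of *nrpe1-11*, *EXLA1* was at 3.04, 9.00 and 20.8 CPM, far below the shared Col-0. The labels name no batch, so growth or library batches and genotype cannot be told apart here.

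**Figure D4:**
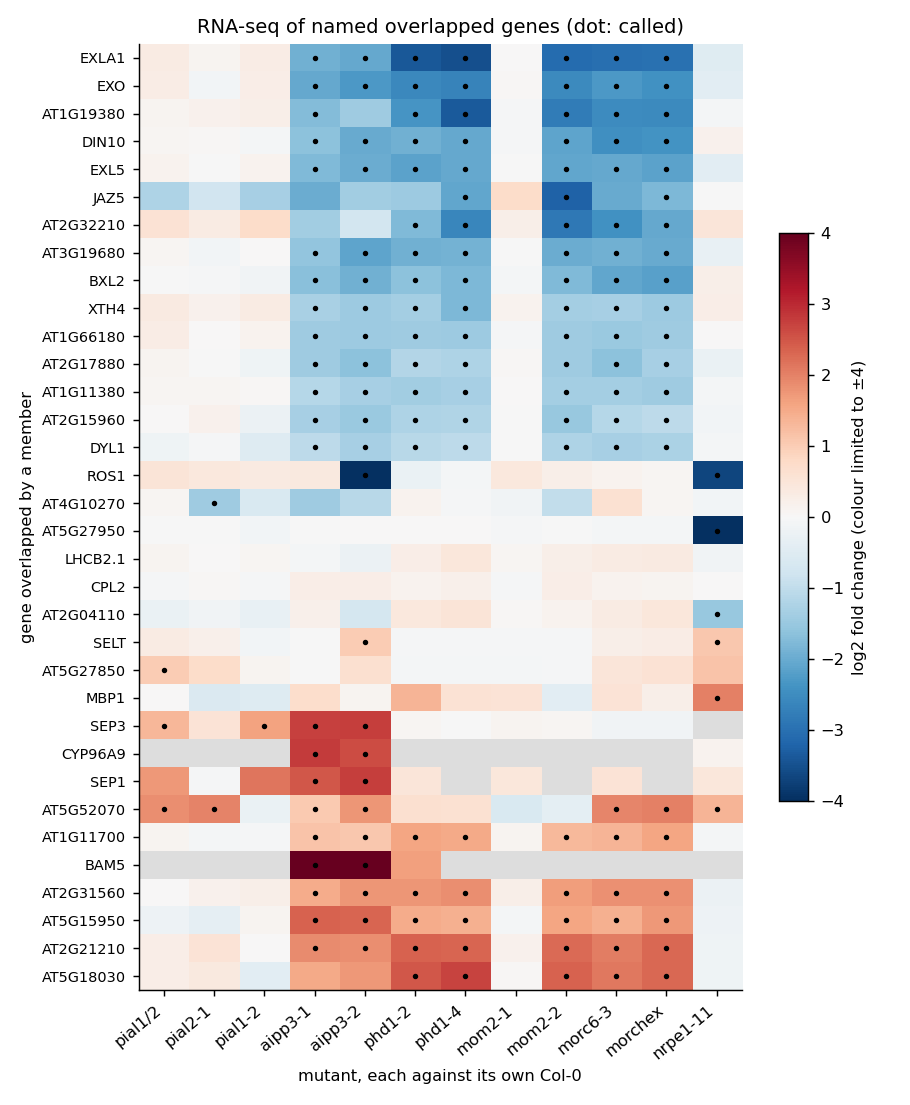
Log2 fold change of the named overlapped genes (rows) in each mutant against its Col-0 (columns, colours limited to 4 either way), with a dot where the gene was called and grey where it was not tested. Each row with a dot in all of *aipp3-1*, *aipp3-2*, *phd1-2*, *phd1-4*, *mom2-2*, *morc6-3* and *morchex* has none in the *pial* mutants, *mom2-1* or *nrpe1-11*.

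AT5G52070 had another pattern. The gene encodes an Agenet domain protein, a fold related to histone readers. Its member at chr5:21160807-21163231 also covers MIR4245 and carried the highest PIAL2-Myc replicate 2 enrichment of all members (13.6), with 5.38 and 5.18 in AIPP3-FLAG, 5.35 and 3.72 in PHD1-FLAG and 4.98 and 7.93 in MORC6-Myc. Its RNA was at 8.60, 6.37 and 7.66 CPM in Col-0 and at 29.0, 27.3 and 25.5 CPM in *pial1/2* (log2 fold change of 1.85, SE 0.117, adjusted p of 1.7e-04 by edgeR). It was also higher in *pial2-1* (1.99), *morc6-3* (1.95), *morchex* (2.02), *aipp3-2* (1.75) and *aipp3-1* (1.06). In *nrpe1-11* it was at 49.6, 47.1 and 46.8 CPM against 19.9, 16.3 and 19.4 in its own Col-0 (1.37, adjusted p of 0.00204). In each of these 7 mutants every mutant library lay above every Col-0 library. The rule that named the gene required this in *pial1/2*, *pial2-1*, *morc6-3*, *morchex* and *nrpe1-11*, so there it is not separate evidence. AT5G52070 was not called in *phd1-2* (0.64) and *phd1-4* (0.62), *pial1-2* (-0.27), *mom2-1* (-0.61) or *mom2-2* (-0.39). The calls held in every alternative fit except in *aipp3-1*, where 1 of 10 gave a log2 fold change of 0.95.

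The DNA demethylase gene *ROS1* (AT2G36490), which lowers DNA methylation and is itself known to respond to it, was lower in *aipp3-2* and *nrpe1-11*. Its member at chr2:15308389-15308756 lay within the gene and was weak, with 1.91 and 1.97 in AIPP3-FLAG, but in both PIAL2-Myc lists (1.79 and 2.48). In *aipp3-2* it was at 0.149, 0.273 and 0.720 CPM against 45.1, 53.1 and 46.5 in Col-0, a log2 fold change of -6.94 (SE 0.262, adjusted p of 2.0e-05, edgeR). In *nrpe1-11* it was at 3.23, 5.32 and 4.11 CPM against 53.0, 49.4 and 60.0 (-3.68, SE 0.186, adjusted p of 8.2e-04). In *aipp3-1*, the other *AIPP3* allele, it was at 54.5, 63.7 and 69.7 CPM, above each Col-0 library (0.40, not called).

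The floral regulators *SEP3* and *SEP1*, MADS-box genes of flower organ identity, and the starch-degrading *BAM5* were higher in the *aipp3* mutants. *SEP3*, on a member at chr1:8593925-8595949, was at 3.42, 4.92 and 3.70 CPM in Col-0 and at 19.2, 22.4 and 37.5 CPM in *aipp3-1* (2.72, SE 0.276, adjusted p of 0.00554), and changed by 2.75 in *aipp3-2*. It was also higher in *pial1-2* (12.0, 13.4 and 10.3 CPM, 1.60) and in *pial1/2* (10.2, 9.72 and 9.23 CPM, 1.31, adjusted p of 0.00638, edgeR). The *pial1/2* call was lost without Col-0 replicate 3 (adjusted p of 0.0503, edgeR). *SEP3* was not called in *pial2-1* (0.55). *SEP1* changed by 2.48 in *aipp3-1* and 2.78 in *aipp3-2*, the former lost in 5 of 10 alternative fits. *BAM5* changed by 4.74 and 5.50 from below 1 CPM, the former lost in 2 of 10 alternative fits (without Col-0 replicate 2 or 3). The floral organ markers *AP3* (5.13 and 5.35) and *AG* (2.51 and 2.73), which are on no member, were also higher in both *aipp3* mutants from near 0 in Col-0, and *PI* was called in *aipp3-1* (1.62) but not in *aipp3-2* (0.97). In *pial1/2* *PI* was not called (0.13), and *AP3* and *AG* were too low to test. The part of flower tissue in the *SEP3* values was not tested.

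**Figure D5:**
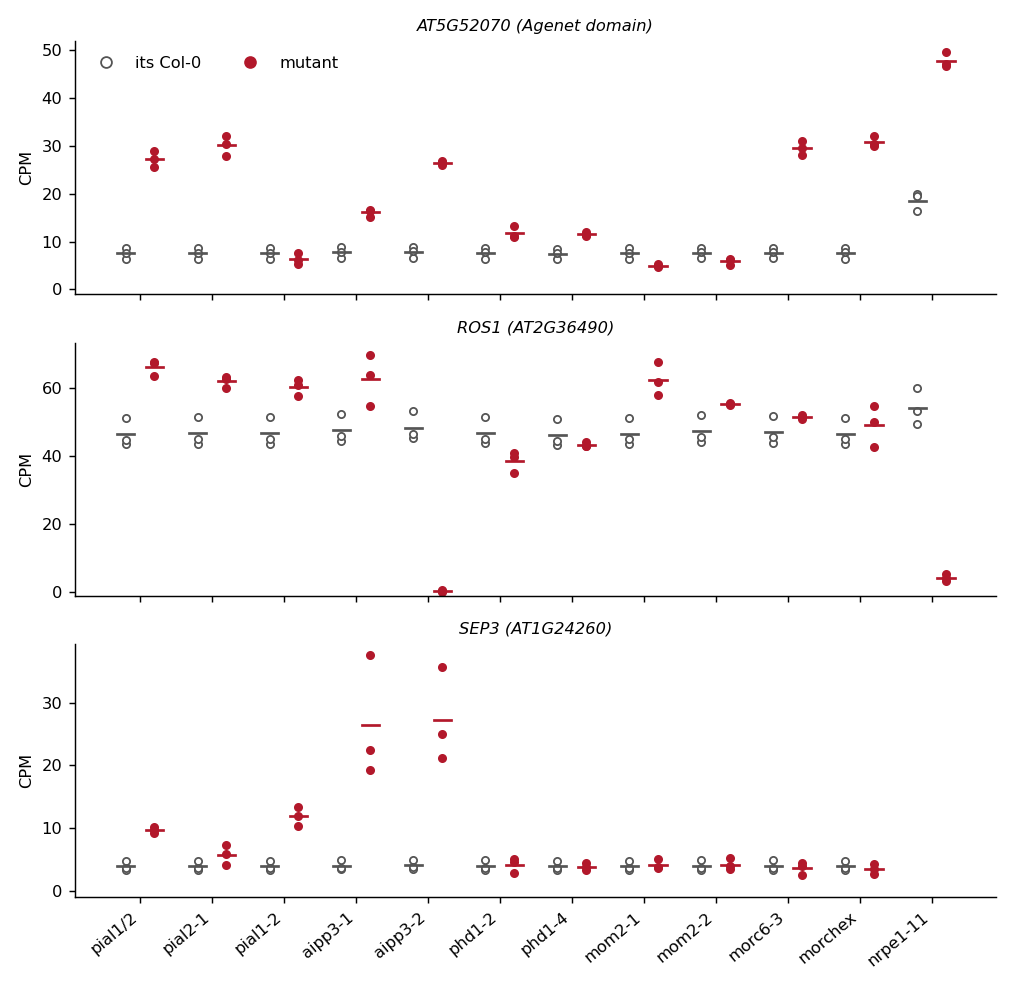
CPM of 3 overlapped genes in each library of each mutant (filled) and of its Col-0 (open), with bars for group means. AT5G52070 lies above its Col-0 in 7 mutants where it was called, *ROS1* falls to below 6 CPM in *aipp3-2* and *nrpe1-11*, and *SEP3*, which was not tested in *nrpe1-11*, is highest in both *aipp3* mutants.

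Other genes were called in 1 or 2 mutants. AT5G27850, a ribosomal protein gene whose member also covers a snoRNA gene, was at 649, 542 and 685 CPM in *pial1/2* against 300.3, 322 and 310.3 in Col-0 (1.01, adjusted p of 0.00251), a call lost in 3 of 10 alternative fits. *SELT* was higher in *aipp3-2* (1.02, lost in 2 of 10 alternative fits) and *nrpe1-11* (1.09, lost in 6 of 10). *MBP1*, a myrosinase-binding protein gene, was higher in *nrpe1-11* (2.01). AT5G27950 had 0 counts in all 3 *nrpe1-11* libraries against 1386, 2057 and 1915 counts in its Col-0, at least 1736-fold lower when set against 3 counts over the group. *CPL2* was not called in any mutant, with log2 fold changes of -0.05 to 0.28.

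Of the genes mutated, RNA was lower in *aipp3-1* (-1.80), *aipp3-2* (-3.18), *pial2-1* (-3.24), *mom2-1* (-6.50), *mom2-2*, *morc6-3* (-1.28) and *nrpe1-11* (-1.85), and *PIAL2* in *pial1/2* (-2.86). In *morchex* it was lower for *MORC1* (-1.93), *MORC2* (-3.66), *MORC6* (-1.96) and *MORC7* (-3.09), *MORC5* was too low to test and *MORC4* was higher (1.10). No lower RNA was seen for *PIAL1* in *pial1-2* (0.05) or *pial1/2* (0.21), or for *PHD1* in the insertion alleles *phd1-2* (0.19) and *phd1-4* (0.27). None of these genes lay on a member. In Col-0, 4 shoot markers were at 3435 to 10626 TPM and the floral markers *AP3* and *AG* at 0 to 0.20 TPM. The floral markers *PI*, at 1.88 to 3.41 TPM, and *SEP3*, at 4.39 to 6.42 TPM, were higher. The root marker *PYK10* was at 1441 to 1511 TPM and the root marker *TIP2-3* at 18.1 to 34.1 TPM. Totals ran from 13164568 to 33464591 counts over the 42 RNA-seq libraries. The peak lists hold no read numbers, but the paper's reporting summary gives them for each ChIP library. There the first PIAL2-Myc library had more reads than the second. The MORC6-Myc lines in *pial1/2* had totals similar to those of the other lines. Read numbers were not used here, and the part of depth in the peak lists was not tested.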

How the data were processed

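The analysis used 18 ChIP-seq peak lists and the RNA-seq tables of 42 libraries. Per the labels, the authors aligned ChIP reads with Bowtie2 2.4.2 to TAIR10, processed them with SAMtools 1.15 and called peaks with MACS2 2.1.2 against a control. The deposited lists give a fold enrichment ratio, a −log10 q value and a score per summit, and each interval was used once. No deposited peak had a −log10 q under 2. Whether peaks recurring in the FLAG ChIP of untagged Col-0, which the methods leave out, are absent from the deposited lists is not stated. The authors obtained an expected count, FPKM and TPM per gene with RSEM. Expected counts as deposited were rounded, deposited TPM was used to compare levels between genes, and FPKM was not used.

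Intervals overlapping by at least 1 bp were counted as shared. Counts were fitted with edgeR 4.0.16 (R 4.3.3, TMM, CPM of at least 1 in 2 of 6 libraries, quasi-likelihood test) over all features in each mutant, with DESeq2 1.42.0 as an alternative. Shares over MORC6-Myc lines were compared by exact permutation with scipy 1.17.1. Both steps were tested on simulated data. Gene positions, classes, promoters and snRNA sequences are from RefSeq TAIR10.1, whose chromosomes no peak overran.

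The members, the lists of genes and motifs and the tests were chosen with earlier results of these data known. Named by rule were the 5 members with the highest AIPP3-FLAG enrichment, the 6 highest present in all lists, the 6 with the highest MORC6-Myc enrichment left in *pial1/2*, the 3 highest without a gene, the 3 genes most raised and most lowered in each mutant, genes called in most mutants, and the mutated and marker genes. A gene named as most raised or lowered had to be called, with a mean CPM of at least 1. Its mutant and Col-0 libraries also had to show no overlap. CCCACATCG, U2.6, the snRNA promoters and the members shown by sequence were chosen after their values were seen. Same-numbered libraries deviated together in all 3 pairs (r above 0.1) in *pial1/2* (0.17 to 0.403) and *mom2-1* (0.224 to 0.373) and in no other mutant. Alternatives concerned the PIAL2 replicates, overlap, q value, normalization, filter, libraries left out and the replicate block. Data on MOM1, *mom1*, MORC4, MORC7 and Pol V occupancy were not used here. The sequence of 1 of the members is not reported here.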

Additional observations from a re-analysis of the deposited data

Results flagged for a closer look

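*ROS1* (AT2G36490, symbol DML1 in RefSeq) differed between alleles of *AIPP3*. Its log2 fold change was -6.94 in *aipp3-2*, where all 3 libraries lay below all Col-0 libraries, and 0.40 in *aipp3-1*, where all 3 lay above them. It was singled out because each library of one allele moved one way and each library of the other the opposite way, among 96 gene and allele pairs examined. The difference between the alleles was not tested. Both were compared with the same Col-0 libraries.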

How the results depend on the processing

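The number of members and their co-occupancy depended on the PIAL2-Myc list. With PIAL2-Myc required in both lists there were 334 members, with PHD1-FLAG at 77.8%, PHD3-FLAG at 67.7%, PHD3-Myc at 35.3% and reference MORC6 at 70.1%. With at least 50% of the interval overlapped there were 411 members, with 41.8%, 63.0%, 18.7% and 33.1%. With a −log10 q of at least 5 there were 555, with PHD1-FLAG at 42.0% and PHD3-Myc at 45.4%, and with 200 bp either side of the summit PHD3-FLAG was at 77.9%. With 1 AIPP3-FLAG or PIAL2-Myc list left out, members numbered 354 (without PIAL2-Myc replicate 1) to 1565 (without AIPP3-FLAG replicate 2), with PHD1-FLAG at 42.8 to 76.6%, PHD3-FLAG at 68.4 to 81.8%, PHD3-Myc at 26.8 to 42.2% and reference MORC6 at 36.5 to 67.5%. With 1 line left out, the MORC6-Myc differences ranged from -50.2 to -42.6, from -40.8 to -35.6 and from 10.8 to 11.7 points. Against Col-0 lines alone they were -47.0 (exact permutation p of 0.2), -37.3 and 11.5 points. Those designs cannot reach 0.05. With at least 50% of the interval overlapped the 3 differences shrank to -23.2, -20.6 and 1.60 points.

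Calls among overlapped genes in *aipp3-1* ranged from 5 to 55 with 1 library left out, with more higher than lower calls in 3 of these 6 fits, in *nrpe1-11* from 5 to 8, in *pial1-2* from 1 to 2 and in *pial2-1* from 1 to 2. By the nearest gene start they were 1 in *pial2-1* and 4 in *nrpe1-11*, and in *pial1-2* they were 4 with DESeq2 and 3 without the filter. With the replicate block the counts stayed at 3 in *pial1/2* and 0 in *mom2-1*, and within 1.5 times elsewhere. The cause of these shifts was not tested.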
